A study of Mus musculus with 2 samples.

Results

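Small structured RNAs of the housekeeping kind are the subject here: 6 genes, Rn7sk, Rmrp, Rpph1, Rny1, Rny3 and Terc, out of 49943 genes in the RefSeq table on chromosomes 1 to 19, X and Y. They were chosen by name, as genes outside the tRNA families that are mostly transcribed by RNA polymerase III, with Terc, a product of RNA polymerase II, as a contrast. A TOBF1 ChIP-Seq peak was assigned to a gene when the midpoint of the peak lay within 5 kb of the annotated span of the gene. By this rule 2 of the 6 genes had a peak, Rn7sk and Rpph1, and no peak lay on the body of any of the 6.

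The peaks came from R1/E mouse embryonic stem cells grown in serum with LIF, in which TOBF1 was expressed with a tag from a BAC, a long clone of genomic DNA. Chromatin was crosslinked with formaldehyde and DSG, and the tagged protein was recovered with an antibody against GFP. The other library of the study is an input from cells with the same construct, made with no antibody and not analysed here. With 1 ChIP library and no replicate, every value below is a description of that library and no test between conditions was possible.

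RNA polymerase III makes short, abundant RNAs that are not translated. At 7SK, RNase P RNA, RNase MRP RNA and Y RNA genes the promoter lies outside the transcribed part: a TATA box and a proximal sequence element (PSE), bound by the SNAPc complex, sit close to the start, and an octamer bound by POU-family factors is often found further out. tRNA and 5S rRNA genes instead carry their promoter inside the gene. The RNA of Rn7sk holds the elongation factor P-TEFb inactive, that of Rpph1 is the catalytic part of RNase P, which trims the 5′ end of tRNAs, and that of Rmrp belongs to RNase MRP, which cuts ribosomal RNA precursors. Rny1 and Rny3 encode Y RNAs, which bind the Ro60 protein, and Terc encodes the template RNA of telomerase.

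Bases just above Rpph1, and most of those above Rmrp, could be read, because each has a protein-coding neighbour beginning just beside it. The annotation used here gives no strand for either RNA gene, so these bases are not assigned to its promoter. Parp2, which encodes a poly(ADP-ribose) polymerase, starts 126 bp above Rpph1, and Ccdc107 starts 281 bp above Rmrp. Both neighbours are on the plus strand in RefSeq (GRCm38.p6), and their promoter entries contain the bases between the genes. None of the 6 RNA genes had a promoter entry of its own. The stretches are shown because they hold matches to the octamer and the PSE core, and no peak covered either stretch. Which gene these matches serve was not tested. The stretches are written along the plus strand, starting at the RNA gene and ending at the base before the neighbour. Letters that match the octamer and the PSE core are in capitals. The first covers the whole space between Rpph1 and Parp2 (chr14:50807772-50807896), and the second all but the 55 bases next to Rmrp (chr4:43493115-43493339).

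Rpph1 to Parp2: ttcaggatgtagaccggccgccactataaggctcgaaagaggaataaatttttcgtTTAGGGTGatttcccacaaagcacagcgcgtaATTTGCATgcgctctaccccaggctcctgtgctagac

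Rmrp to Ccdc107: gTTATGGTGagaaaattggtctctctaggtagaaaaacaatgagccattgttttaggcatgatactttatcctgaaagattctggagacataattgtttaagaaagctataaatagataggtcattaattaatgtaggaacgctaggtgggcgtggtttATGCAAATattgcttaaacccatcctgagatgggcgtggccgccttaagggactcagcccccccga

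Both stretches held 1 octamer (ATGCAAAT, searched on both strands) and 1 PSE core (CACCNTAA, both strands). In both, the PSE core matched on the minus strand, and its base next to the RNA gene was base 57 beyond the annotated end of that gene. The octamer started at base 89 beyond Rpph1 and at base 215 beyond Rmrp. Among 32851 RefSeq promoter entries on these chromosomes, the same 125-base part held the octamer in 0.892% and the PSE core in 0.785%, and the same 225-base part held each of them in 1.51%. A TATAAA sequence (both strands) was found once in the Rmrp stretch, at base 163 beyond the gene and so farther out than the PSE core, and not in the Rpph1 stretch, where 10.6% and 6.77% of entries held one. The 55 bases next to Rmrp were not read. Only exact matches were counted. The letters tataag, 1 base different from TATAAA, lie between Rpph1 and its PSE core and were not counted. The motifs were chosen after the sequences were seen, do not overlap each other, and describe letters only. The nearest peak edge was 4.83 kb from the stretch beside Rpph1 and 158 kb from that beside Rmrp. Over all promoter entries, 198 (0.603%) overlapped a peak, so an entry without one was the usual case.

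Rn7sk was the member closest to a peak. The gene lies on chromosome 9 (78175302 to 78175633, 332 bp), and its peak (78174062 to 78174352) had its midpoint 1095 bp below the lower end of the gene and its nearer edge 950 bp away. The score of this peak, which is the authors' own value and was taken as −log10 of a q-value, was 22.7, higher than the median of 9.97 over all 12181 peaks and at the 80th percentile of the list (rank 2436). Of all annotated genes no longer than 400 bp, 3.81% lay as close to a peak midpoint. The peak stood alone, in the 3188 bp between the end of Cilk1, a gene for a ciliary kinase, and Rn7sk. Cilk1 is on the plus strand, so the peak lay beyond its downstream end, 2093 bp from it, and Rn7sk was the nearest annotated gene of any type. Whether the peak is upstream or downstream of Rn7sk is not stated, since the gene table used here gives no strand for it.

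On the other side of Rn7sk, the lncRNA gene C920006O11Rik begins 281 bp away, and no peak overlapped its promoter entry. The next peak above lay 15.4 kb from Rn7sk (78190826 to 78191153, score 26.5). It was 976.5 bp below Gsta4, which encodes a glutathione S-transferase. These 2 peaks, 16.8 kb apart, were the only ones within 50 kb of Rn7sk.

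Rpph1 met the rule by a small margin. The gene lies on chromosome 14 (50807447 to 50807771, 325 bp), and its nearest peak (50802556 to 50802947) had its midpoint 4696 bp below it and a score of 7.60, at the 36.5th percentile of the list. The next peak, at 5070 bp and with a score of 4.10, fell just outside the limit of 5 kb. After it, the closest peak to another member was that of Terc at 11962 bp.

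The peak counted for Rpph1 was the last of a run. Between 50795348 and 50802947, 7 peaks followed each other at gaps of 80 to 1241 bp and covered 57.1% of 7.60 kb. Their scores ran from 3.32 to 13.6 with a median of 6.25, and the highest belonged to a peak of 2501 bp at the far end of the run. With it, 13 peaks on the chromosomes were that wide or wider. That wide peak covered the whole promoter entry of Ccnb1ip1, a gene of meiotic crossover formation whose start faces Rpph1. RefSeq lists no gene between Ccnb1ip1 and Rpph1. Above Rpph1 there was no peak for 131 kb, although Parp2 begins there.

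**Figure D1:**
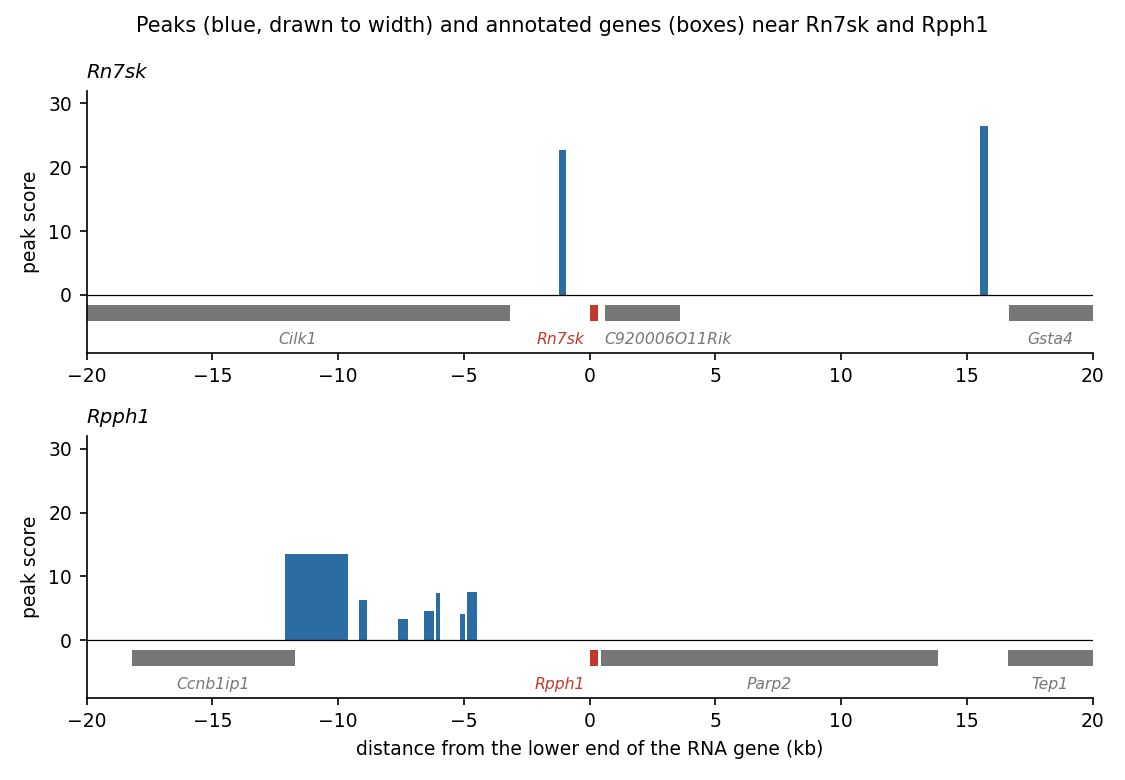
Peaks within 20 kb of Rn7sk (upper panel) and Rpph1 (lower panel). The x axis is the distance from the lower end of the RNA gene in kb, the y axis the peak score, blue boxes are peaks drawn to their width, red boxes the RNA genes and gray boxes other annotated genes. Rn7sk has 1 isolated peak 1095 bp away (score 22.7), whereas the peak near Rpph1 (score 7.60) ends a run of 7 peaks that begins at Ccnb1ip1.

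Rmrp had no peak within 50 kb on either side. The gene lies on chromosome 4 (43492785 to 43493059, 275 bp), in a stretch of 461 kb without a peak that holds 33 other genes, 24 of them protein-coding. The nearest peak, 158 kb below, was strong (score 55.8, rank 460) and lay inside Atp8b5. The next above was 303 kb away, with a score of 25.4. Rmrp and Rpph1, whose RNAs share most of their protein subunits, had their nearest peak at 158 kb and 4.70 kb. Neither had a peak on the stretch shown above. The distance at Rmrp was not unusual, since 65.6% of genes up to 400 bp had a peak as close or closer and the median peak-free stretch around such genes was 466 kb.

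The Y RNA genes are neighbours on chromosome 6 and shared their surroundings. Rny3 (47781624 to 47781724, 101 bp) and Rny1 (47788070 to 47788180, 111 bp) lie in 1 peak-free stretch of 371 kb with 23 other genes, among them Pdia4, which encodes a protein disulfide isomerase of the endoplasmic reticulum. The nearest peak lay 173 kb below Rny3 and 180 kb below Rny1 and had a score of 7.95. Its nearest gene was the lncRNA gene F830010H11Rik (10953 bp), and its nearest protein-coding gene was Ezh2 (13.2 kb), for the catalytic subunit of PRC2. On the upper side the first peak was 191 kb from Rny1 and 198 kb from Rny3 (score 5.23). That peak lay 245 bp from a tRNA gene, n-TCgca57. Because they share both flanking peaks, Rny1 and Rny3 count as 1 location rather than as independent cases.

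Terc, the contrast made by RNA polymerase II, lay in a region with more peaks but had none within 5 kb. The gene is on chromosome 3 (96414437 to 96414833, 397 bp), and its nearest peaks were 12.0 kb below (score 8.44) and 44.2 kb above (score 9.69). Within 500 kb of Terc there were 17 peaks, and 96.0% of genes up to 400 bp had as many or fewer. The other members had 15 (Rn7sk), 12 (Rpph1), 3 (Rny1 and Rny3) and 2 (Rmrp), where the median for genes of this size was 4 and the quartiles were 2 and 7. Rn7sk, Rpph1 and Terc lay above the upper quartile, and Rmrp and the Y RNA genes did not. At Rpph1, 7 of the 12 were the run described above, and with peaks within 1 kb merged, a step added after the data were seen, the numbers were 14 at Terc, 9 at Rn7sk and 7 at Rpph1, beside an upper quartile of 6. Both genes with a peak within 5 kb were among these 3, and the part of the local number of peaks in that result was not tested.

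Several of the peaks around Terc were at genes of other small RNAs. Of the 6 peaks within 100 kb of Terc, 4 lay within 1 kb of a tRNA gene, the closest at 116 bp. The nearest peak of all, 12.0 kb from Terc, was 184 bp from the asparagine tRNA gene n-TNgtt10 and inside the lncRNA gene Gm26654. The first peak above Terc was the one 116 bp from a tRNA gene (n-TNgtt13). It lay inside the lncRNA gene Gm40099 and 1002 bp from Rnu1b6, a gene of the U1 spliceosomal RNA. In the same 100 kb on either side RefSeq lists 25 tRNA genes, 5 of which had a peak midpoint within 1 kb, beside 54 of all 408 tRNA genes (13.2%). Of these 25 genes, 7 lie with Terc in the peak-free 56.5 kb.

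**Figure D2:**
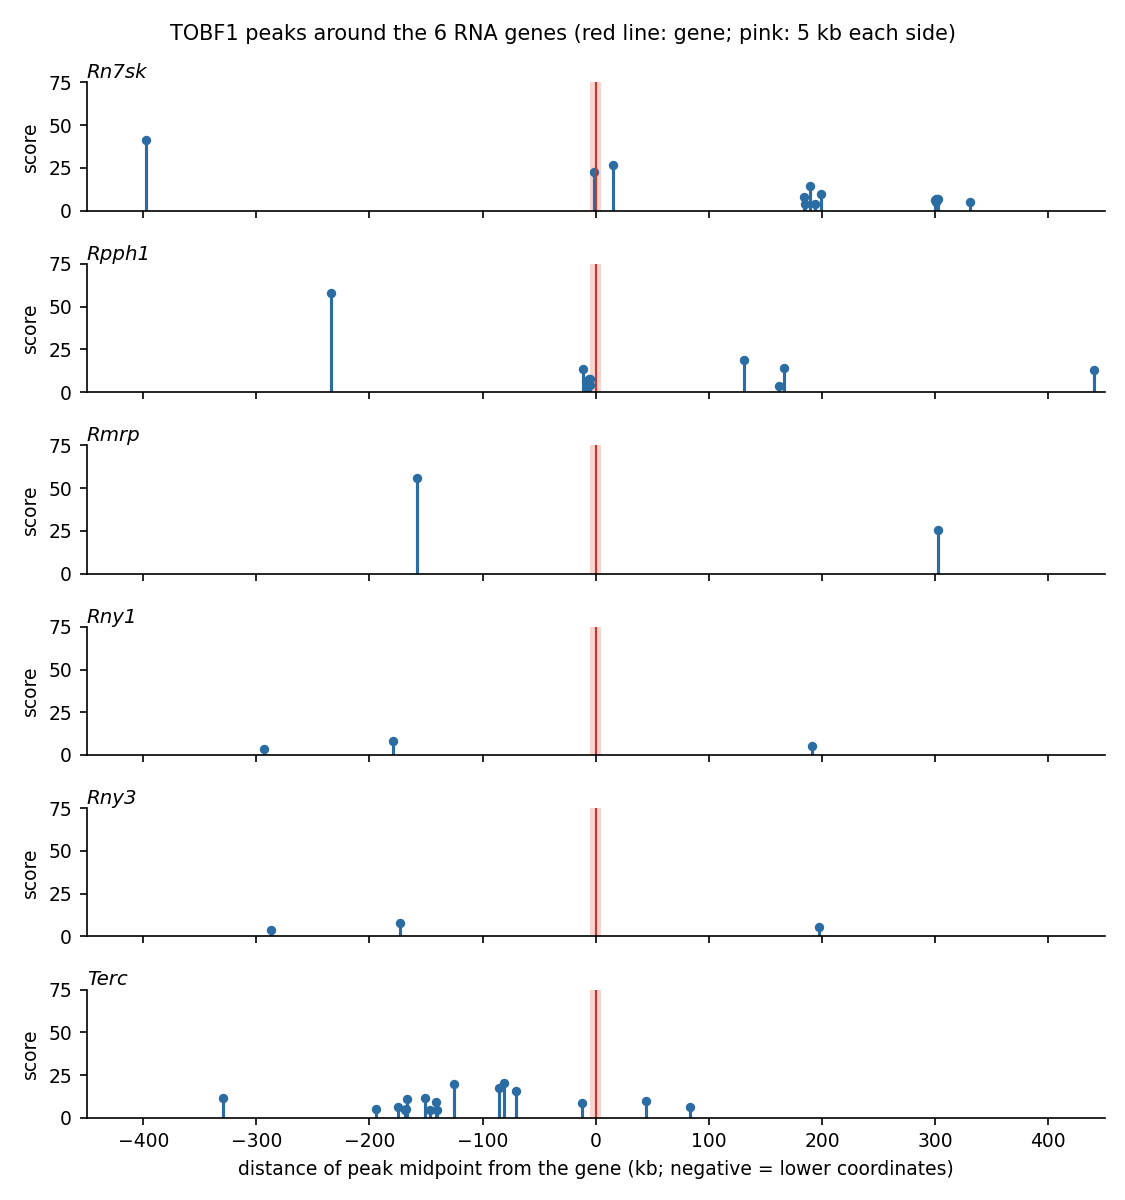
Peaks within 450 kb of each RNA gene. The x axis is the distance of the peak midpoint from the gene in kb, the y axis the peak score, the red line marks the gene and the pink band 5 kb on either side. Peaks fall in the pink band at Rn7sk and Rpph1, Terc has 17 peaks within 500 kb but none in the band, and Rmrp, Rny1 and Rny3 have 2 or 3 peaks, the nearest of them 158 kb away.

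Read against other genes, 2 of 6 (33.3%, exact 95% interval 4.33 to 77.7%, counting error only) stood beside 13.0% of all genes and 8.56% of the 5725 genes up to 400 bp. The interval contains both backgrounds, so a difference from them was not detectable with 6 genes. Without Terc the count was 2 of 5 (40.0%, interval 5.27 to 85.3%). Within 1 kb none of the 6 had a peak, against 9.36% of all genes and 3.55% of the short ones. The interval treats genes as independent, which Rny1 and Rny3 are not.

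Other classes of RNA made by RNA polymerase III ranged from no gene with a peak, among 5S rRNA entries, to 23.5%, among tRNA genes. Of 7 further such genes in the table (Rn7s1 and Rn7s2 for the 7SL RNA, Rn5s, Rnu6, Vaultrc5, Bc1 and Rn4.5s), only Rn7s1 had a peak within 5 kb, at 1886 bp and with a score of 5.46. The 7SL RNA is the scaffold of the signal recognition particle. None of 70 entries for 5S rRNA had one, which allows a share of up to 5.13% (upper bound of the exact 95% interval). Their near-identical sequences are a limit, since the sources used here do not say how reads in repeats were kept. The 3 RNase P RNA entries related to Rpph1 (Rprl1, Rprl2 and Rprl3) lay 474, 42.7 and 210 kb from a peak. tRNA genes had a peak within 5 kb in 96 of 408 cases (23.5%, interval 19.5 to 28.0%), against 8.56% of genes up to 400 bp, and within 1 kb in 13.2%, against 3.55%. The 96 genes shared 45 distinct nearest peaks, so they are not independent and the interval is too narrow. A list of 13 lncRNA genes made by RNA polymerase II, among them Neat1 and Malat1, had a peak within 5 kb in 8 cases (61.5%), against 11.6% of all lncRNA genes, and was likewise drawn up with results known.

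At genes of the U1, U2, U3, U5, U7, U11 and U12 RNAs, which RNA polymerase II makes, peaks were often close to the gene. Of 14 such Pol II snRNA genes, 8 had a peak within 5 kb (57.1%, interval 28.9 to 82.3%), against 6.97% of all snRNA entries, and 7 had one within 1 kb, against 3.09%. The 14 genes were picked by name and are longer (median 165.5 bp, against 107 bp), so these shares compare unlike sets. RefSeq lists the U3 genes as snRNA, although U3 works as a snoRNA, and 12.1% of snoRNA entries had a peak within 5 kb. With only the peaks of at least the median score, 2 of the 14 genes (14.3%) had one within 5 kb. By the same filter 7.37% of all genes and 3.60% of genes up to 400 bp had one. Of the 7 genes with a peak within 1 kb, Rnu3b1 had the peak midpoint inside the gene, and the other 6 had it 58 to 220.5 bp outside the span. These included Rnu7 (58 bp), whose RNA processes histone mRNAs, Rnu5g (162.5 bp), Rnu2-10 (218 bp) and Rnu1a1 (220.5 bp). Scores at the 7 genes were mostly low, 2.03 to 17.9 with a median of 3.49, beside 9.97 over all peaks. A score of 4.10, above that median of 3.49, was at the 10.6th percentile of the list. At Rn7sk, the closest of the 6 genes to a peak, the midpoint was 1095 bp away. The U1 and U3 genes have near-identical copies, so reads there may be split between copies. Some are also close neighbours, Rnu1a1 with the Rnu3b genes on chromosome 11 and the Rnu1b genes on chromosome 3. The interval treats the 14 genes as independent, which these are not. The difference between the groups was not tested, as both lists are short and were drawn up with results of these data known.

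**Figure D3:**
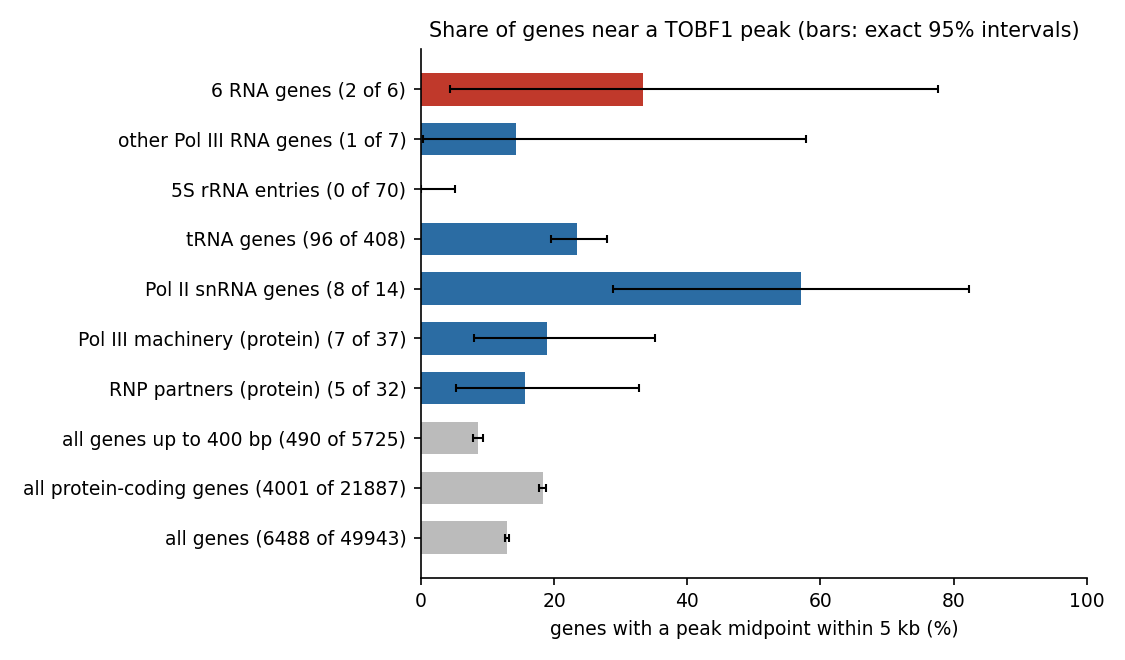
Share of genes with a peak midpoint within 5 kb (x axis, percent) for each group of genes (y axis, with counts). Error bars are exact 95% intervals for counting error, red is the group of 6 RNA genes, blue other groups and gray the backgrounds. The interval of the 6 genes (4.33 to 77.7%) spans the shares of all genes (13.0%) and of genes up to 400 bp (8.56%).

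Genes for the machinery of RNA polymerase III, taken as a whole, were not set apart. Their list was not divided by promoter type, so it gives no separate share for the factors used at the RNA genes studied here. Of 37 genes for subunits and factors of RNA polymerase III, 7 had a peak within 5 kb (18.9%, interval 7.96 to 35.2%), against 18.3% of all protein-coding genes. Pou2f1, which encodes the octamer-binding factor Oct-1, had the highest score (61.4) among them. Polr3b (39.2) and Polr3a (18.5), the genes of the 2 largest subunits, and Snapc3 (15.1), for a subunit of the PSE-binding complex, also had peaks inside the gene. Snapc5 had a peak 237.5 bp away with a score of 8.63, and Gtf3c3 had 1 at 4800 bp (3.71). The peak counted for Gtf3c6 (score 2.03) was the peak beside Rnu3a.

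The list of proteins that bind the 6 RNAs had a peak in 5 of 32 cases (15.6%, interval 5.28 to 32.8%), also beside 18.3%. It holds Zbp1, which under this symbol is a Z-DNA sensor and not a known partner of Y RNAs, and without it the count was 5 of 31 (16.1%). Larp7, which binds the end of 7SK RNA, was the only 1 of 7 partners of 7SK with a peak (score 57.5), and Hexim1, Mepce and Cdk9 had none. That share, 14.3%, was below the 18.3% of all protein-coding genes. Whether another gene overlaps the peak inside Larp7 was not examined. None of the 11 subunits of RNase P and RNase MRP had one, the closest being Rpp25 at 5.31 kb, which was named after its value was seen. Of the Y RNA partners, Ybx1 (30.4) and Mov10 (19.3) had peaks, and Ro60, the main partner, had its nearest peak 16.6 kb away. Of the telomerase partners, Wrap53 (49.0), which brings telomerase to Cajal bodies, and Naf1 (4.94), an assembly factor, had peaks, whereas Tert and Dkc1 did not. All 5 had a peak midpoint inside the gene, and the scores are the highest within 5 kb.

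Ordered by the distance to the nearest peak, the 6 genes were Rn7sk (1.09 kb), Rpph1 (4.70 kb), Terc (12.0 kb), Rmrp (158 kb), Rny3 (173 kb) and Rny1 (180 kb), with a median of 84.9 kb. The median was 95.6 kb over genes up to 400 bp (quartiles 31.0 and 213 kb) and 0.611 kb over the 14 Pol II snRNA genes. Rn7sk, Rpph1 and Terc lay below the lower quartile of short genes, and the other 3 between the median and the upper quartile. With 1 library there is no error on these distances.

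**Figure D4:**
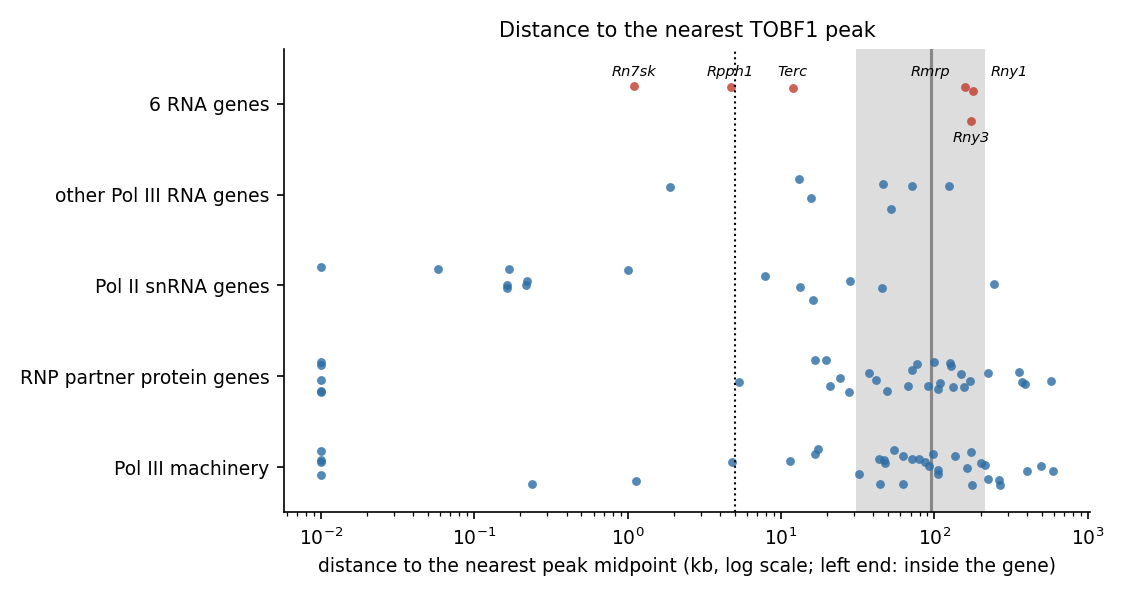
Distance from each gene to its nearest peak midpoint (x axis, kb, log scale; genes with a midpoint inside are drawn at the left end) for the 6 RNA genes in red and 4 other groups in blue. The gray band and line are the quartiles (31.0 and 213 kb) and median (95.6 kb) of genes up to 400 bp, and the dotted line marks 5 kb. The 6 RNA genes run from 1.09 to 180 kb, whereas 7 of 14 Pol II snRNA genes lie within 220.5 bp of a midpoint.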

How the data were processed

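TOBF1 ChIP-Seq peaks were analysed from 1 deposited list of chromosome, start, end, name and score. Per the submitters' processing notes, the tools were Bowtie2, MACS2, cutadapt and bedtools and the build mm10, with no versions or settings. The sources used here do not say which control the peak call had, how repeats were treated or how deep the library was. Scores in the deposited file were taken to be −log10 q-values, given their lowest value of 1.30, and were used only within the list.

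Genes came from RefSeq (GRCm38.p6, positions as in mm10), and 12012 peaks on chromosomes were used. Distances ran from the gene span to the peak midpoint, and positions count from 1. Intervals are exact (Clopper-Pearson, 95%). The distance search was tested on simulated peaks. Members and gene lists were chosen with earlier results of these data known. Matched were 37 of 37 polymerase III genes, 7 of 11 other polymerase III RNAs, 14 of 19 Pol II snRNAs, and 6 of 7 Y RNA partners, the other being an older symbol of Ro60; the remaining partner lists matched in full. All 13 lncRNA genes listed were matched. Genes were named by rule: the 6 members, their neighbours, the genes nearest their peaks, and up to 6 genes per list with a peak. Others named were chosen after their values were seen. Python 3.11.15, SciPy 1.17.1 and pandas 2.3.3 were used.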

Additional observations from a re-analysis of the deposited data

How the results depend on the processing

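The count of 2 of 6 RNA genes held with a window of 10 kb and with any overlap. It was 0 within 1 kb, where neither Rn7sk nor Rpph1 kept its peak. It was 1 (Rn7sk) with the stronger peaks alone (those with a score of at least the median) and with peaks within 1 kb merged. Rn7sk thus depends on the window, and Rpph1 on all of these choices. The background over genes up to 400 bp, added after the data were seen, also fell, to 3.55% within 1 kb and 3.60% with the stronger peaks. With the stronger peaks 4 of 37 polymerase III machinery genes (10.8%), 0 of 7 other polymerase III RNA genes and 2 of 14 Pol II snRNA genes (14.3%) had a peak. Within 1 kb 0 of the 7 other polymerase III RNA genes had one. Over all genes the count fell to 3683 with the stronger peaks, and the share from 13.0% to 7.37%. Counts for RNA-binding partners stayed between 4 and 6 of 32, and leaving out Zbp1, also added after the data were seen, left 5 of 31. With the stronger peaks the nearest peak was 10.8 kb from Rpph1, 70.6 kb from Terc, 1230 kb from Rny1 and 1240 kb from Rny3, while Rn7sk and Rmrp kept theirs. Distances to the edge of the peak in place of its midpoint moved by less than 1 peak width. No paired analysis was possible because the series has 1 library per group and no test between groups was made. Sequencing depth is unknown, so a gene without a peak cannot be told apart from one with signal under the threshold of the peak call.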
